A study of Mus musculus with 58 samples.

Results

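Immediate early genes and Krüppel-like factor (KLF) genes were followed in adipose stem cells (ASC) sorted from inguinal white adipose tissue (iWAT) of castrated, ovariectomized and control mice. The group was given as a list of 10 gene symbols, Fos, Fosb, Jun, Junb, Egr1, Atf3, Ier2, Klf2, Klf4 and Klf6, and its rows were found by Ensembl identifier among the 56953 genes of the count table. All 10 genes had a row, and all 10 passed the count filter (at least 5 reads in more than 3 libraries), which left 12464 genes for testing.

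Immediate early genes are transcribed within minutes of a stimulus without the need for new protein synthesis. Their products are mostly transcription factors. FOS and FOSB pair with JUN or JUNB to form the AP-1 dimer, ATF3 is a stress-induced member of the same leucine zipper class, and EGR1 and the KLF proteins bind GC-rich DNA through zinc fingers. In stromal cells these genes are known to respond to growth factors, to mechanical and oxidative stress and to the enzymatic dissociation of tissue, and KLF4 and KLF6 also take part in the differentiation of preadipocytes.

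The 58 libraries were bulk Smart-seq3 libraries of C57BL6/J mice, in 8 groups made of 4 conditions and 2 sorted populations. The conditions were control male, control female, castrated male and ovariectomized female, with surgery at 4 weeks of age. All mice, controls included, were terminated at 10 weeks after a 4 h fast. Every library came from CD45-/CD31-/CD34+ cells, and the cells were collected as ASC1 when DPP4- and as ASC2 when DPP4+. There were 7 control male ASC1 libraries, 3 ovariectomized female ASC1 libraries and 8 libraries in each other group, with letters A to H for controls and I to P for operated mice. By their labels the groups are cells of one fat depot, split by DPP4 within one CD45-/CD31-/CD34+ gate, so each can hold a mixture of ASC states. Whether a letter marks one mouse is not stated in the labels.

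Libraries held between 106562 and 1421518 counts in total and had 9122 to 15026 genes detected. Dpp4 was 0.872 to 14.1 CPM (counts scaled to library size, with TMM factors) in control male ASC1 and 121 to 343 CPM in control male ASC2. Of the 58 libraries, 27 went against their sex label, with at least 20 CPM of Xist in a library labelled male or of 4 Y-linked genes in one labelled female. These were 4 of 7 control male ASC1, 4 of 8 control male ASC2, 5 of 8 control female ASC1, 6 of 8 control female ASC2 and all 8 castrated male ASC1 libraries, and none of the others. Both signals were at 20 CPM or more in control male ASC2 E, F and H and in control female ASC2 B, E, G and H. Control female ASC2 E, for example, had 87.1 CPM of Xist and 36.4 CPM of the Y-linked genes. Whether such libraries hold RNA of both sexes was not tested. The castrated male ASC1 libraries had 51.9 to 118 CPM of Xist and 0 to 4.72 CPM of the Y-linked genes, while castrated male ASC2 had 0 to 7.99 and 55.9 to 100.1 CPM. Groups are therefore named as labelled, and counts of calls are also given without the libraries against their sex label. By another marker, 22 libraries of 58 had at least 10 CPM of Tcf21, a transcription factor gene of visceral mesenchyme, although all are labelled iWAT. In ASC1 and ASC2 these were 3 of 7 and 0 of 8 in control males and 6 of 8 and 2 of 8 in control females. They were 6 of 8 and 1 of 8 in castrated males, and 0 of 3 and 4 of 8 in ovariectomized females. Their share was thus higher in ASC1 of the first 3 conditions and in ASC2 of ovariectomized females. Some of them also went against their sex label. Whether their cells came from another depot was not tested, and counts are given without these 22 too.

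The 3 ovariectomized female ASC1 libraries stood apart from the other 55. Their share of mitochondrial transcripts was 3.42% (L), 2.05% (N) and 1.55% (P), against 0.533% to 1.29% elsewhere. The summed level of 5 fibroblast markers was 44926 to 46771 CPM in them, against 3380 to 15878 CPM elsewhere. The summed level of 3 epithelial markers was 0 in all 3, and that of 5 macrophage markers was 24.8 to 27.5 CPM against 46.1 to 650 CPM elsewhere. Cd68 was at 0 to 2.29 CPM in these libraries and is a macrophage marker that every other library held at 32.1 CPM or more. Genes detected were 9122 to 11622 in the 3, against 9334 to 15026 elsewhere, with a median of 13667. Library L had 11622 genes detected at 1114321 counts. The part of these differences in the results below was not tested, and results on this group were refitted with each of the 3 left out. With all 3 left out of the fit, the counts of called genes in the other comparisons were the same.

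Promoter sequences of RefSeq (GRCm38.p6) were matched for 8 of the 10 genes, and the 250 bases before the annotated start are shown for the 4 AP-1 genes. These were chosen because Fos and Fosb moved furthest between populations within this family and Junb passed the test in no comparison. Capitals mark TATAAA and TGACG, the latter a core of the cAMP response element, on either strand.
Fos, chr12:85473640-85473889, plus strand: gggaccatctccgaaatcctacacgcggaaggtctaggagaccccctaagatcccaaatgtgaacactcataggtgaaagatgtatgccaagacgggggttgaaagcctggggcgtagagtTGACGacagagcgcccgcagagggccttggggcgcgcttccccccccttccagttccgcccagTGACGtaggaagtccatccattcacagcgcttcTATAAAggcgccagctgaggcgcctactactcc
Fosb, chr7:19310046-19310295, minus strand: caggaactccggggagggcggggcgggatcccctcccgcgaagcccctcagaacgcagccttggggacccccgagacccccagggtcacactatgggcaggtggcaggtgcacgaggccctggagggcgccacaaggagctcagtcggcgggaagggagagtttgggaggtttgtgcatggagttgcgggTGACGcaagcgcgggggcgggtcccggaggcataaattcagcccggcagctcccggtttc
Jun, chr4:95052223-95052472, minus strand: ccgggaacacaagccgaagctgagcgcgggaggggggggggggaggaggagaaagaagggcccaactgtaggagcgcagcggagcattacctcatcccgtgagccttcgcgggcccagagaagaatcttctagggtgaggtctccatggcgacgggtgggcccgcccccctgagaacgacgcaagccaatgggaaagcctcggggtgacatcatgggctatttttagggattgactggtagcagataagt
Junb, chr8:84978749-84978998, minus strand: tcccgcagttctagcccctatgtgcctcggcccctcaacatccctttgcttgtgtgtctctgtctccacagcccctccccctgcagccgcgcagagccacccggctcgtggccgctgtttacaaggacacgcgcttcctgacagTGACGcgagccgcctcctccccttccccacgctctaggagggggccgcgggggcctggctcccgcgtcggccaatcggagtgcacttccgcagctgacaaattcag

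The motif TGACG, searched on both strands, was present in 6 of the 8 promoters and in 17.8% of 32851 promoters of the same length. It was chosen after the sequences had been seen. GGGCGG, a GC box, was in 7 of 8 and in 32.7% of all promoters, and TATAAA was in the Fos promoter only and in 12.4% of all. The full element TGACGTCA (1.55% of all), the AP-1 site TGANTCA (6.75%) and the CArG box of serum response factor (1.47%) were not found in these windows. In Fos, TGACG began 129 and 66 bases before the start, and TATAAA began 33 bases before it. In Junb, whose level did not pass the test in any comparison, TGACG began 106 bases before the start.

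**Figure D1:**
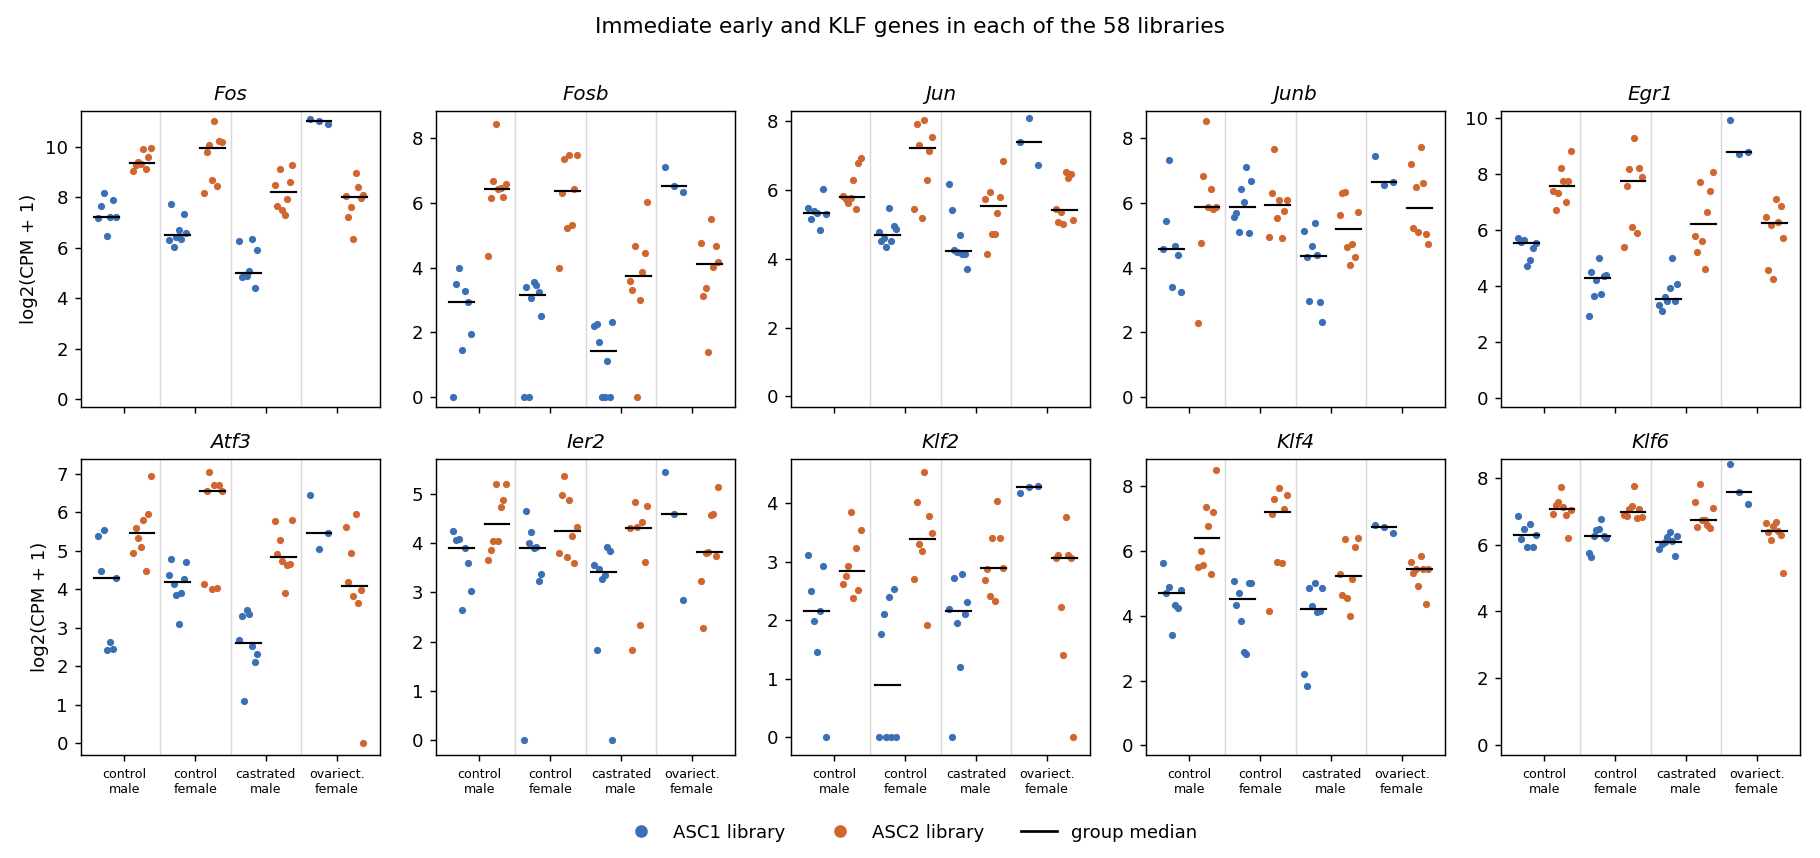
Each point is one library; the vertical axis is log2(CPM + 1), the horizontal axis the 4 conditions, blue ASC1 and orange ASC2, and the black line the group median. For Fos the ASC2 points lie above the ASC1 points in control male, control female and castrated male mice, and the 3 ovariectomized ASC1 points, at 1913 to 2206 CPM, lie above all 8 ovariectomized ASC2 points.

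The first question was whether DPP4+ ASC2 differed from DPP4- ASC1. In control males, control females and castrated males the difference was positive for all 10 genes, and Fos, Fosb, Egr1, Atf3 and Klf6 passed the test in each of the 3 conditions. In castrated males all 8 ASC1 libraries went against their sex label and no ASC2 library did. There population and sex signal cannot be told apart. In ovariectomized females the difference was negative for all 10, and Fos, Fosb, Jun, Egr1 and Klf6 passed. In bulk RNA, a change in the share of expressing cells and a change in RNA per cell cannot be told apart.

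In control males 6 of 10 genes were higher in ASC2 (adjusted p below 0.05, edgeR), and 6.88% of all genes tested were. In control females 8 of 10 were higher against 3.54% of all genes, and in castrated males 5 of 10 against 4.47%. In ovariectomized females 5 of 10 were lower in ASC2, where 12.9% of all genes were. For the mean of the 4 conditions, 7 genes were higher in ASC2 against 14.7% of all genes, although this mean joins opposite directions. With the ovariectomized mice left out of the mean, the 7 genes were all still called.

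Fos, the AP-1 subunit that gives the family its name, had the clearest separation. In control males its lowest, median and highest levels were 87.2, 148 and 287 CPM in ASC1 and 523, 662 and 1004 CPM in ASC2. In control females they were 65.0, 89.8 and 213 CPM in ASC1 and 291, 991 and 2076 CPM in ASC2. In castrated males they were 19.97, 31.0 and 80.2 CPM in ASC1 and 157, 303 and 627 CPM in ASC2. Every ASC2 library of these 3 conditions was above every ASC1 library of the same condition. In ovariectomized females the ASC1 libraries had 2206 (L), 2111 (N) and 1913 (P) CPM, and ASC2 had 80.7, 260 and 501 CPM as lowest, median and highest. Here the groups did not overlap either, but with ASC1 on top. The log2 fold change of ASC2 against ASC1 was 2.01 ± 0.34 (SE) in control males (adjusted p = 2.9e-05), 3.08 ± 0.35 in control females (1.22e-09), 2.92 ± 0.36 in castrated males (2.43e-08) and -3.02 ± 0.40 in ovariectomized females (1.49e-08, edgeR).

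Fosb, a FOS relative that often follows it in time, was low in ASC1 of 3 conditions. Its ASC1 range was 0 to 14.9 CPM in control males, 0 to 10.7 CPM in control females and 0 to 3.99 CPM in castrated males, with no read in 1, 2 and 3 libraries. In ASC2 the range was 19.5 to 346 CPM in control males, 14.8 to 179 CPM in control females and 0 to 64.7 CPM in castrated males. The control groups did not overlap, while castrated ASC2 had 1 library without a read, inside the ASC1 range. The ovariectomized ASC1 libraries had 137 (L), 91.8 (N) and 80.5 (P) CPM, above the 1.65 to 44.6 CPM of ASC2. The log2 fold changes were 3.92 ± 0.56 (adjusted p = 1.09e-06), 3.76 ± 0.56 (1.6e-06) and 3.09 ± 0.78 (0.00559) in the first 3 conditions and -2.51 ± 0.62 (0.00103, edgeR) in ovariectomized females.

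Jun, the partner that can also form a dimer with itself, was called in control and ovariectomized females. In control females it rose from a median of 24.8 CPM (19.3 to 43.9) in ASC1 to 148 CPM (35.3 to 263) in ASC2, with libraries D and A of ASC2 inside the ASC1 range. The log2 fold change was 2.37 ± 0.36 (adjusted p = 1.93e-06, edgeR). In control males the ranges were 27.8 to 64.4 CPM in ASC1 and 42.4 to 121 CPM in ASC2, and the log2 fold change of 0.79 ± 0.35 did not pass (adjusted p = 0.133). In castrated males it was 0.72 ± 0.36 (adjusted p = 0.224), with ranges of 11.98 to 71.8 and 16.6 to 113 CPM that overlapped. In ovariectomized females Jun had 168 (L), 271 (N) and 105 (P) CPM in ASC1 and 31.3 to 90.4 CPM in ASC2, a log2 fold change of -1.73 ± 0.43 (adjusted p = 0.00122).

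Junb, the JUN relative with weaker activating function, did not pass in any condition. Its levels varied widely within groups. In control male ASC2 they went from 3.89 to 370 CPM, and in control male ASC1 from 8.54 to 159 CPM, with library D highest in both. In control females the medians were 57.5 CPM in ASC1 and 59.8 CPM in ASC2, and the log2 fold change was 0.06 ± 0.51 (adjusted p = 0.976, edgeR). In control males, castrated males and ovariectomized females it was 1.12 ± 0.53, 1.04 ± 0.57 and -0.53 ± 0.68, with adjusted p of 0.168, 0.277 and 0.567.

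Egr1, a zinc finger factor induced by growth factors through ERK, passed in all 4 conditions, like Fos. In control males the range was 25.3 to 50.9 CPM in ASC1 and 104 to 447 CPM in ASC2, and in control females 6.56 to 31.0 CPM and 40.7 to 622 CPM. Neither pair of ranges overlapped. In castrated males ASC1 had 7.66 to 30.7 CPM and ASC2 23.1 to 265 CPM, and only library M of ASC2 lay below the highest ASC1 value. The ovariectomized ASC1 libraries had 957 (L), 413 (N) and 440 (P) CPM against 18.1 to 136 CPM in ASC2. The log2 fold changes were 2.40 ± 0.44 (adjusted p = 0.000111), 3.57 ± 0.47 (9.3e-08), 2.96 ± 0.48 (1.97e-05) and -3.06 ± 0.50 (2.03e-06, edgeR), in the same order of conditions.

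Atf3, the stress-induced ATF family member, was higher in ASC2 of 3 conditions. In castrated males ASC1 had 1.13 to 10.03 CPM and ASC2 14.1 to 55.0 CPM, without overlap, and the log2 fold change was 2.37 ± 0.52 (adjusted p = 0.00135, edgeR). In control females it was 2.06 ± 0.44 (adjusted p = 0.00124), where 5 of 8 ASC2 libraries had 92.4 to 130 CPM and the others 14.9 to 16.7 CPM, inside the ASC1 range of 7.49 to 26.6 CPM. In control males it was 1.36 ± 0.44 (adjusted p = 0.0318), with ranges of 4.36 to 45.8 and 21.2 to 121 CPM. In ovariectomized females the ASC1 values of 85.7 (L), 32.1 (N) and 43.3 (P) CPM overlapped the ASC2 range of 0 to 60.7 CPM, and the difference of -1.06 ± 0.57 did not pass (adjusted p = 0.14).

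Ier2, a small nuclear early response protein, had low levels throughout. Group medians were between 9.66 CPM in castrated ASC1 and 22.9 CPM in ovariectomized ASC1. The ranges of ASC1 and ASC2 overlapped in all 4 conditions, and the log2 fold changes of 0.85, 0.69, 0.79 and -0.97 had adjusted p of 0.158, 0.345, 0.255 and 0.143 (edgeR).

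Of the KLF genes, Klf4, a regulator of proliferation and of early adipogenesis, had the largest difference in the controls. In control females ASC1 had 6.01 to 32.8 CPM and ASC2 16.7 to 245 CPM, with only library A of ASC2 inside the ASC1 range. The log2 fold change was 2.74 ± 0.45 (adjusted p = 1.64e-05, edgeR), and in control males it was 2.32 ± 0.45 (0.000244), with 9.59 to 48.4 and 38.2 to 366 CPM. In castrated males the value was 1.30 ± 0.47 (adjusted p = 0.0672) and in ovariectomized females -1.35 ± 0.56 (0.0547), and neither passed. The ovariectomized ASC1 libraries, at 111 (L), 106 (N) and 92.9 (P) CPM, were nevertheless all above the 19.8 to 57.2 CPM of ASC2.

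Klf6, a broadly expressed KLF gene, had small differences with little spread. Medians of ASC1 and ASC2 were 76.8 and 134 CPM in control males, 74.9 and 125 CPM in control females and 67.0 and 106 CPM in castrated males. The ranges did not overlap in control females (48.4 to 108 and 110 to 215 CPM) or castrated males (49.9 to 82.4 and 89.5 to 223 CPM). The log2 fold changes of 0.76 ± 0.20, 0.81 ± 0.20 and 0.89 ± 0.20 passed with adjusted p of 0.0078, 0.00425 and 0.00148 (edgeR). In ovariectomized females Klf6 had 337 (L), 188 (N) and 149 (P) CPM in ASC1 and 34.3 to 102 CPM in ASC2, a log2 fold change of -1.48 ± 0.25 (adjusted p = 4.45e-06).

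Klf2, best known from flow-exposed endothelium and quiescent lymphocytes, had few reads. In control females 4 of 8 ASC1 libraries had none, and its range was 0 to 4.83 CPM in ASC1 and 2.80 to 22.2 CPM in ASC2. The log2 fold change there was 2.19 ± 0.51 (adjusted p = 0.00307, edgeR). It did not pass in control males (0.96 ± 0.50, adjusted p = 0.206), castrated males (1.14 ± 0.50, 0.146) or ovariectomized females (-1.42 ± 0.60, 0.0584). The 3 ovariectomized ASC1 values, 17.1 (L), 18.4 (N) and 18.6 (P) CPM, gave the highest group mean of this gene and rested on 22 reads in all.

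**Figure D2:**
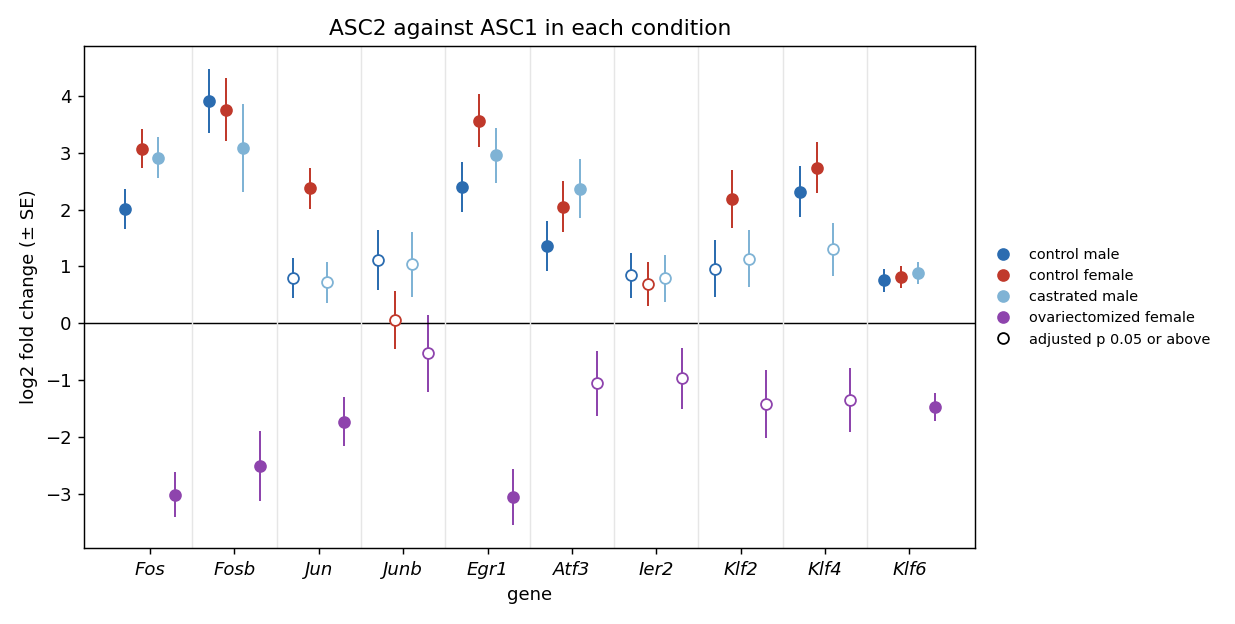
The vertical axis is the log2 fold change of ASC2 against ASC1 with its SE (edgeR), the horizontal axis the gene, and colours the 4 conditions; filled circles have an adjusted p below 0.05. Fos stands at 2.01, 3.08 and 2.92 in 3 conditions and at -3.02 in ovariectomized females.

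Counted by non-overlap, 3 genes in control males, 4 in control females, 3 in castrated males and 7 in ovariectomized females had ASC1 and ASC2 ranges that did not overlap. The share of all tested genes without overlap was 2.28%, 1.13%, 1.64% and 21.8%, and the last group had only 3 ASC1 libraries. The median gene of the table was itself shifted by 0.37 in log2 fold change between ASC2 and ASC1 of ovariectomized females, and relative to this shift Fos was at -3.38, Egr1 at -3.43 and Klf6 at -1.84.

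Other cell markers moved between the populations as well. Cd34, a marker of the gate, was 199 to 346 CPM in ASC1 and 540 to 1372 CPM in ASC2 of control males. It was 78.7 to 249 and 502 to 1902 CPM in control females and 24.0 to 185 and 335 to 1055 CPM in castrated males. In ovariectomized females Cd34 was 1372 to 1782 CPM in ASC1 and 127 to 721 CPM in ASC2, the reverse order, as for Fos. Summed mural markers there were 161 to 307 CPM in ASC1 and 815 to 2047 CPM in ASC2. Summed mural markers were 576 to 800 CPM in control male ASC1 and 82.5 to 758 CPM in ASC2, and 706 to 1459 and 173 to 1398 CPM in control females. Summed epithelial markers were 39.4 to 632 CPM in control female ASC1 and 6.37 to 38.0 CPM in ASC2, nearly all from Krt8 and Krt18, while Epcam did not exceed 11.8 CPM. In castrated males the macrophage sum was 64.6 to 113 CPM in ASC1 and 133 to 650 CPM in ASC2, without overlap and with ASC2 on top. Of the early genes, only Fos, Atf3 and Klf6 had ranges without overlap there. In the controls the mean macrophage sum was higher in ASC1, at 252 and 128 CPM in males and 202 and 110 CPM in females. Their part in the differences of the early genes was not tested.

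Without the libraries that went against their sex label, Fos and Fosb were still called of the 6 genes in control males. The 3 ASC1 libraries left there, B, C and D, had 13.3 to 17.8 CPM of Tcf21, and control male ASC2 had 0 CPM. In control females Fos and Klf4 were still called of the 8 genes, where 3 and 2 libraries of ASC1 and ASC2 remained. In castrated males no ASC1 library remained. Without the libraries with Tcf21, Fos, Jun, Egr1 and Klf4 stayed called in control females, and Fos and Egr1 in castrated males. The share over all genes is not given for these subsets. All called genes kept their direction in these subsets. Fos was called in every one of the subsets of this comparison that gave a value. Without the Tcf21 libraries, control females kept 2 ASC1 libraries, with 0 CPM of the Y-linked genes, and 6 ASC2 libraries, each with at least 20 CPM. Castrated males kept 2 ASC1 libraries, both against their sex label, and 7 ASC2 libraries, none of which were. There an ASC2 difference and a difference of sex signal cannot be told apart, so this repeated call does not separate them.

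The second question was the effect of gonadectomy within each population, for which the same control libraries served as above. In ASC1, all 10 genes had a negative difference in castrated against control males, of which only Fos passed. All 10 had a positive difference in ovariectomized against control females, of which 8 passed. In ASC2, Fos, Fosb and Klf4 were lower in both operated groups, and Jun, Egr1 and Klf6 also in ovariectomized females. Without the libraries against their sex label, only Fosb stayed called in castrated ASC2 and none of these genes in ovariectomized ASC2. No castrated ASC1 library was left there.

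In castrated against control male ASC1, 1 of 10 genes was lower against 1.30% of all genes tested. This was Fos, whose ranges of 19.97 to 80.2 CPM and 87.2 to 287 CPM did not overlap, with a log2 fold change of -2.01 ± 0.36 (adjusted p = 0.00028, edgeR). Egr1 (-1.54 ± 0.51, adjusted p = 0.0936) and Atf3 (-1.69 ± 0.55, 0.0896) did not pass. All 8 castrated libraries and 4 of the 7 controls went against their sex label here. Without the libraries with Tcf21, which left 2 castrated libraries, the Fos difference was -1.57 and was not called, nor was any other gene of the table. Cd34, a marker of the gate, was 24.0 to 185 CPM in castrated and 199 to 346 CPM in control ASC1, without overlap, and its part in the Fos difference was not tested.

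In castrated against control male ASC2, 3 of 10 genes were lower against 4.32% of all genes. Fosb fell from a median of 86.2 CPM to 12.3 CPM, a log2 fold change of -2.70 ± 0.49 (adjusted p = 0.000213, edgeR). Fos fell from a median of 662 to 303 CPM (-1.10 ± 0.32, adjusted p = 0.0246) and Klf4 from 86.2 to 36.3 CPM (-1.45 ± 0.41, 0.0217). The ranges overlapped for each gene. No castrated ASC2 library went against its sex label, and without the 4 control libraries that did, only Fosb was called, Fos being at -0.85 (adjusted p = 0.133) and Klf4 at -0.77 (0.268). The fibroblast marker sum was 3380 to 7696 CPM in castrated and 7738 to 12759 CPM in control ASC2, and the endothelial sum 55.9 to 112 and 14.8 to 46.6 CPM, both without overlap. The part of these markers in the lower early genes was not tested.

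In ovariectomized against control female ASC1, 8 of 10 genes were higher against 12.7% of all genes, and Junb and Ier2 were not called. The ranges of these 8 genes did not overlap between the groups, which held for 20.9% of all genes. Egr1 had the largest log2 fold change, 5.01 ± 0.54 (adjusted p = 6.15e-11, edgeR), followed by Fos with 4.22 ± 0.41 (1.72e-12) and Fosb with 3.89 ± 0.67 (5.71e-06). Klf2 (2.92 ± 0.65), Jun (2.73 ± 0.44), Klf4 (2.38 ± 0.58), Atf3 (1.77 ± 0.59) and Klf6 (1.59 ± 0.25) were also higher. The median gene was shifted by -0.34 in this comparison, which puts Fos at 4.56 and Klf6 at 1.93 relative to it. The 3 operated libraries are those with the higher mitochondrial share, and Dcn, a matrix proteoglycan gene of fibroblasts, had 21694 to 27563 CPM in them and 1739 to 3471 CPM in the control libraries. Acta2, a gene of contractile cells, had 18.6 to 73.4 CPM in them and 665 to 1434 CPM in the controls. The part of these differences in the early genes was not tested, and with 1 library of the 3 left out in turn, 7 to 9 genes were called.

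In ovariectomized against control female ASC2, 6 of 10 genes were lower against 1.44% of all genes. Fosb fell most, from a median of 81.9 to 16.3 CPM, with a log2 fold change of -2.38 ± 0.49 (adjusted p = 0.00236, edgeR). Fos (-1.87 ± 0.33, adjusted p = 0.000324), Klf4 (-1.71 ± 0.42, 0.0143), Egr1 (-1.62 ± 0.41, 0.0196), Jun (-1.38 ± 0.34, 0.0128) and Klf6 (-0.70 ± 0.19, 0.04) were also lower. Only Klf6 had ranges without overlap, 34.3 to 102 CPM against 110 to 215 CPM. Within the control group, libraries A, D and F had the lowest 3 values of Fos, from 291 to 415 CPM, while the other 5 had 885 to 2076 CPM. The count was 0 without the 6 control libraries that went against their sex label, which left 2 controls, with Fos at -1.53 (adjusted p = 0.38). It was also 0 without the libraries with Tcf21, with Fos again at -1.53 (adjusted p = 0.0638). The 2 controls left in the first subset, C and D, are those left out of the second, so no control library is in both. The median mural marker sum was 1841 CPM in operated and 409 CPM in control ASC2, the epithelial sum 195 and 15.8 CPM, and the sum of the ASC2 markers Dpp4, Cd55 and Arl4d 134 and 365 CPM, with ranges that overlapped for each. The part of these markers in the lower early genes was not tested.

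**Figure D3:**
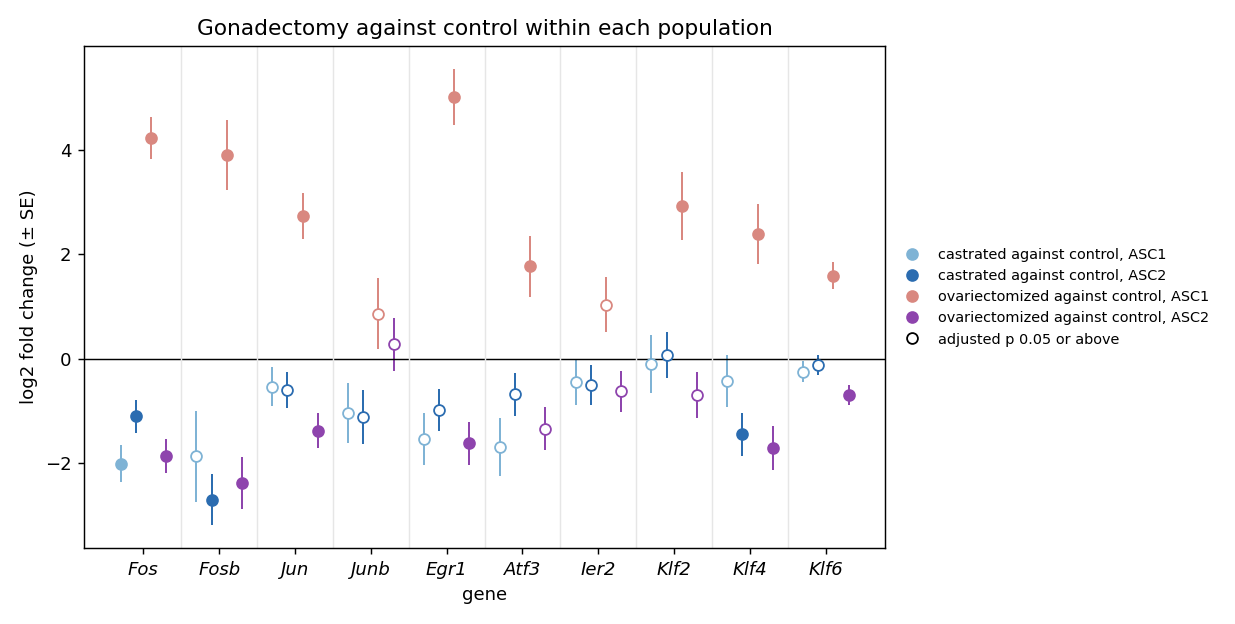
The vertical axis is the log2 fold change of operated against control mice with its SE (edgeR), the horizontal axis the gene, and colours the operation and population; filled circles have an adjusted p below 0.05. The ovariectomized ASC1 points are above 0 for all 10 genes, up to 5.01 for Egr1, and most other points are below 0.

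The effects were compared between the populations by the difference of the contrasts. For ovariectomy, ASC2 minus ASC1 was lower for 9 of 10 genes against 12.6% of all genes, with -6.63 ± 0.68 for Egr1 (adjusted p = 1.5e-11, edgeR), -6.27 ± 0.83 for Fosb, -6.09 ± 0.52 for Fos and -1.66 ± 0.65 for Ier2 (0.042). Relative to the median gene, which was at 0.40, Egr1 was at -7.02 and Fos at -6.49. Junb was the exception, at -0.58 ± 0.85 (adjusted p = 0.623). These differences rest on the 3 ovariectomized ASC1 libraries, and 7 to 9 genes were called with any 1 of them left out. For castration the difference was called for 0 of 10 genes against 2.41% of all genes in either direction. None had an unadjusted p below 0.05 in edgeR, and DESeq2 also called 0. The castration differences were between -1.02 ± 0.65 for Klf4 and 1.01 ± 0.68 for Atf3. This contrast sets castrated ASC1, where all 8 libraries went against their sex label, against castrated ASC2, where none did. An effect of castration and this conflict of labels cannot be told apart in it.

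Control males and females were compared within each population. In ASC1, 0 of 10 genes were called against 0.289% of all genes in either direction (edgeR), 2 had an unadjusted p below 0.05 and DESeq2 called 0. The largest difference was that of Egr1, 1.11 ± 0.49 higher in the libraries labelled male (adjusted p = 0.524). In ASC2, Jun was lower in libraries labelled male (-1.02 ± 0.32, adjusted p = 0.0418, edgeR), 1 of 10 genes against 2.87% of all. Its values were 42.4 to 121 CPM in males and 35.3 to 263 CPM in females, so the ranges overlapped. The call did not hold without the libraries against their sex label (-0.87, adjusted p = 0.407). With more than 3 libraries of each of these groups against the label, the comparison is one of labels.

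Across the 8 groups, ovariectomized ASC1 had the highest mean of Fos, Jun, Junb, Egr1, Ier2, Klf2 and Klf6, and castrated ASC1 the lowest mean of every gene but Jun and Klf2, which were lowest in control female ASC1. Fos means fell from 2077 CPM in ovariectomized ASC1 to 939, 723, 339 and 258 CPM in control female, control male, castrated and ovariectomized ASC2, and to 179, 111 and 44.5 CPM in control male, control female and castrated ASC1. For Fos, each group in this order overlapped the next in its range over libraries. Klf4 was the only gene with a gap, between ovariectomized ASC1 (92.9 to 111 CPM) and the next group, castrated ASC2 (15.1 to 84.1 CPM).

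Other genes of the same pathways were counted from 6 lists, 114 of whose 128 genes were tested. For reference, the share of all genes higher in ASC2 was 6.88%, 3.54%, 4.47% and 22.5% in control males, control females, castrated males and ovariectomized females, and the share lower was 5.3%, 2.58%, 4.62% and 12.9%. In ovariectomized against control ASC1, 12.7% of all genes were higher and 22.1% lower. Among 26 tested immediate early genes outside the group, 4 were higher and 1 lower in ASC2 of control males, 5 and 0 in control females, 4 and 4 in castrated males, and 6 and 7 in ovariectomized females. The median log2 fold change was 0.14, 0.43, 0.52 and -0.03, against -0.01, 0.00, 0.01 and 0.37 over all genes. The 6 higher of 26 in ovariectomized females and the 1 lower of 26 in control males are near the shares over all genes. Nr4a1, an orphan nuclear receptor gene, passed in each condition, with 4.19, 3.33, 2.81 and -1.41. Its mean levels in control males were 14.04 CPM in ASC1 and 275 CPM in ASC2, and it was lower in ASC2 after castration (-2.10, adjusted p = 0.00029) and ovariectomy (-1.96, 0.0023, edgeR).

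Among 24 feedback inhibitors, genes that end the early response, 5 were higher and 2 lower in ASC2 of control males, 5 and 1 in control females, 4 and 1 in castrated males and 3 and 7 in ovariectomized females. The median log2 fold change was 0.44, 0.28, 0.28 and -0.39, and the 3 higher of 24 in ovariectomized females are a smaller share than that over all genes. Zfp36, whose protein destabilizes AU-rich transcripts, and Dusp1, a MAP kinase phosphatase, passed in all 4. Zfp36 was at 2.29, 2.59, 1.99 and -1.42, and Dusp1 at 1.96, 2.56, 2.39 and -2.79. Spry1, an inhibitor of receptor tyrosine kinase signaling, went the other way in both controls, at -1.56 in males and -1.41 in females. After ovariectomy, Dusp1 was higher in ASC1 by 4.12, while Nab2, a repressor that binds EGR1, was at -4.28, with means of 7.26 CPM in operated and 119 CPM in control mice.

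Of 16 AP-1 and ATF genes, 1 was higher (Atf2, 0.92) and 1 lower (Atf4, -0.55) in ASC2 of control males, each near the share over all genes, and 0 were called in control females (edgeR), where 1 had an unadjusted p below 0.05 and DESeq2 called 0. Fosl1, a FOS relative, had no read in the 3 ovariectomized ASC1 libraries and a mean of 35.7 CPM in control female ASC1. Of 7 other KLF genes, Klf13 was higher in control male ASC2 (2.03, adjusted p = 0.00038), with 94.7 CPM in ASC1 and 393 CPM in ASC2 as means. Klf9, a KLF gene induced by glucocorticoids, was higher in ovariectomized ASC1 (1.87, adjusted p = 8.2e-06), with means of 152 and 41.2 CPM.

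Of 26 upstream kinases and factors, 1 was higher and 3 were lower in ASC2 of control males, with a median of -0.17, and 1 was higher and 0 lower in control females, with a median of -0.19. In the list 14 were lower and 2 higher in ovariectomized against control ASC1, with a median of -1.12 against -0.34 for all genes. Elk3, an ETS factor that works with serum response factor, was at -4.03, and Map2k1, the kinase upstream of ERK, at -1.89. In ASC2 of ovariectomized mice 0 of these genes were called in edgeR, 2 had an unadjusted p below 0.05 and DESeq2 called 1. Of 15 heat shock genes, 1 (Dnajb4, 1.23) was called in control males and 0 in control females and castrated males (edgeR), where 4 and 3 had an unadjusted p below 0.05 and DESeq2 called 0. In ovariectomized against control ASC1, 4 were higher and 3 lower, the latter near the share over all genes, with Hspa1a at 1.56 and a list median of 0.48.

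Within groups, the 10 genes varied together. Deviations of log2(CPM + 1) from the group means over the 58 libraries gave a Pearson r between 0.08 and 0.81 for the 45 pairs, with a median of 0.34. Over all pairs of 8778 genes with at least 10 CPM the median was 0.02. Fos and Egr1 had the highest r, 0.81, followed by Fos and Fosb (0.69), Fos and Jun (0.64), and Atf3 and Ier2 the lowest. Without the ovariectomized ASC1 libraries the median was 0.33. These values are descriptions, since genes of one library share its depth and preparation.

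**Figure D4:**
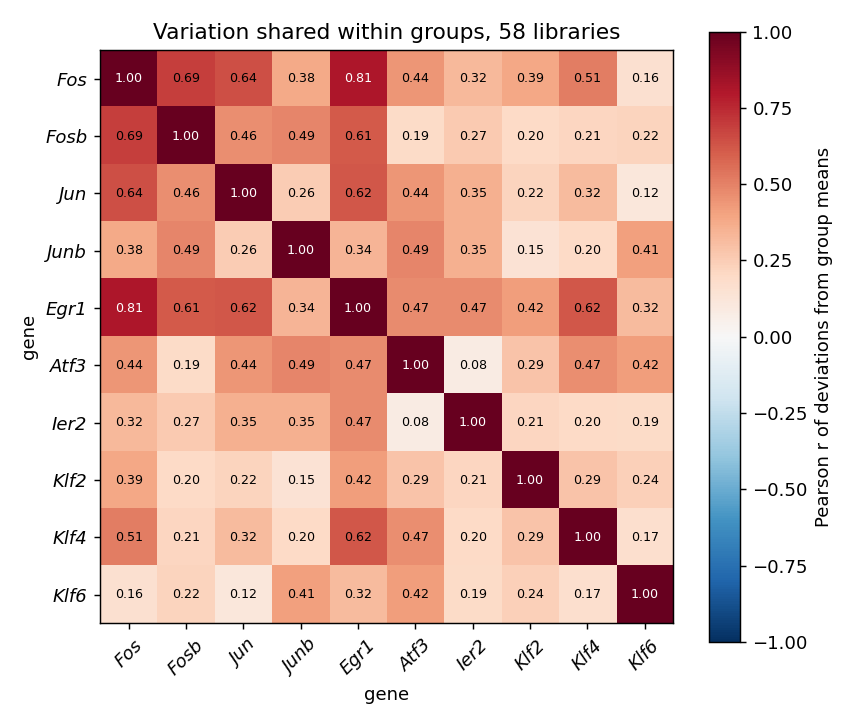
Each cell is the Pearson r of 2 genes' deviations from their group means over 58 libraries, printed and coloured from -1 (blue) to 1 (red), with genes on both axes. All 45 pairs are positive, from 0.08 to 0.81, and the highest are among Fos, Fosb, Jun and Egr1.

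The mean log2(CPM + 1) of the 10 genes was used as a level per library. Its lowest, median and highest values were 3.72, 4.58 and 5.35 in control male ASC1, 5.25, 6.17 and 6.95 in control male ASC2, 3.47, 4.36 and 4.71 in control female ASC1 and 4.96, 6.68 and 7.37 in control female ASC2. In castrated males they were 3.28, 3.61 and 4.04 in ASC1 and 4.30, 5.40 and 6.29 in ASC2. The ovariectomized ASC1 libraries were at 6.58 to 7.42 and ASC2 at 4.27 to 6.27. Over the 58 libraries, deviations of this level from the group means had r of 0.44 with the mitochondrial share, 0.20 with total counts and 0.18 with genes detected. With the macrophage sum r was 0.05, with the endothelial sum -0.01 and with Tcf21 0.00. No r was computed for the fibroblast, mural, ASC1 or ASC2 marker sums. In control female ASC2 the lowest and highest ASC2 sums were 162 CPM (F, level 5.34) and 839 CPM (E, 7.37). They were 189 CPM (G, 6.29) and 494 CPM (H, 6.94) in control male ASC2. In castrated ASC2 they were 70.3 CPM (M, 4.30) and 418 CPM (K, 6.05), and in ovariectomized ASC2 103 CPM (P, 4.36) and 206 CPM (M, 6.27). The part of these markers in the level was not tested.

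**Figure D5:**
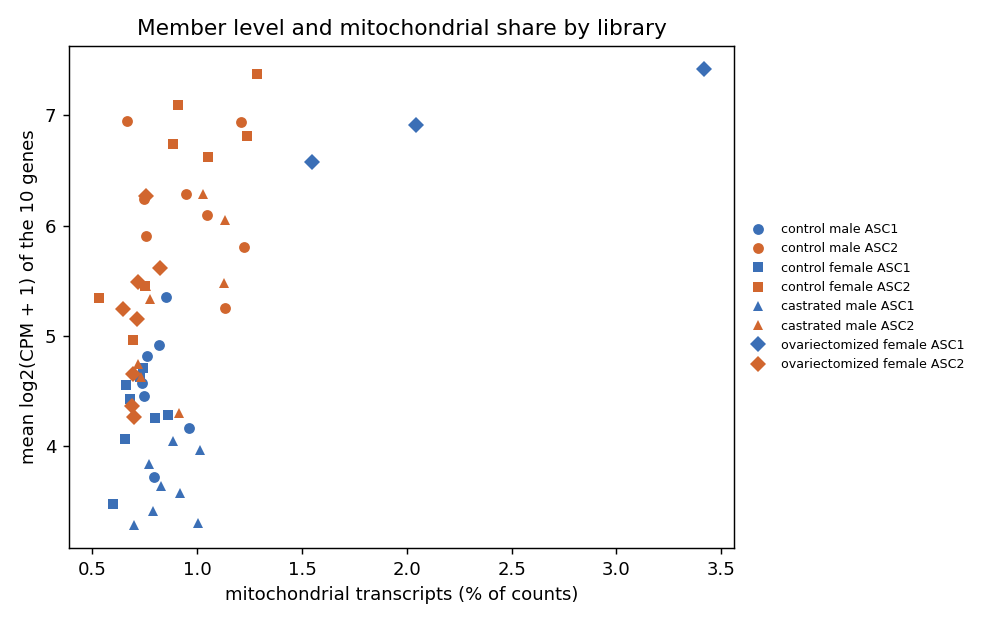
The horizontal axis is the share of counts from mitochondrial transcripts, the vertical axis the mean log2(CPM + 1) of the 10 genes, and each point a library, coloured by population and shaped by condition. The 3 ovariectomized ASC1 libraries are at 1.55% to 3.42%, to the right of all others, and within groups r was 0.44.

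The genes most like this level, by r of deviations from the group means among 8735 genes, were Gsn (0.86), Scara5 (0.80), Zfp36 (0.79), Tppp3 (0.77), Clec3b (0.76), Igfbp6 (0.76), Tmeff2 (0.74), Nfkbia (0.72), Igfbp5 (0.70) and Nr4a1 (0.69). The median over these genes of the table was 0.02. Zfp36, Nfkbia and Nr4a1 are early response genes, while Gsn encodes an actin-severing protein, Clec3b a secreted lectin and Igfbp5 and Igfbp6 binding proteins of insulin-like growth factors. Of the 10, Igfbp5, Igfbp6, Nr4a1, Scara5 and Zfp36 were higher in ASC2 of control males, with Igfbp5 at 2.75 and Scara5 at 1.88, and all 10 were higher in ASC2 of control females. Over all genes tested, 6.88% and 3.54% were higher there. The 10 were picked for their likeness in these same libraries, so their counts are a description. In ovariectomized against control ASC1, Gsn was higher by 3.84 and Tppp3 by 3.96. Eno1, a glycolytic enzyme gene, was at the other end, with r of -0.60.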

How the data were processed

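RNA of sorted ASC1 and ASC2 was measured in 58 Smart-seq3 libraries. The authors trimmed adapters with NGmerge, aligned reads with STAR 2.7.10a for quality control and quantified them with Salmon 1.9.0 (GRCm39); they deposited estimated counts per gene, not normalized, with UMI and other reads joined, and removed libraries with few genes detected. Here counts were rounded to whole numbers (15.0% of values above 0 were not whole) and tested in R 4.3.3 with edgeR 4.0.16 (TMM, glmQLFit, glmQLFTest), with 1 coefficient for each of 8 groups, on the 12464 genes that reached 5 reads in at least 4 libraries. On simulated data the fit returned the sign and size of known changes with few false calls, but it missed many lowered genes in the comparison with 3 ovariectomized ASC1 libraries, so a gene not called there may still differ. A requirement on the number of such genes found was dropped after it had not been met. Adjusted p is Benjamini-Hochberg over all genes tested, with 0.05 as threshold, and CPM use TMM-scaled library sizes. Depth (106562 to 1421518 counts) limits genes with few reads. DESeq2 1.42.0, limma 3.58.1, other scalings, filters and subsets were alternatives. Symbols were matched by identifier, and promoters and motifs were read from RefSeq.

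Text names all 10 genes, called or most changed genes of 6 lists, marker genes, and the 10 genes most alike. The members and lists were chosen with earlier results of these data known. No 2 libraries of a group agreed within sampling noise (lowest chi-square per gene 1.41). The labels do not say that libraries came from separate mice, so p-values measure the spread between these libraries. Same-letter ASC1 and ASC2 libraries had deviations with r of -0.26 to 0.38 over 26 pairs, and letters were not taken as pairs. In vitro cultivated cells were not analysed here.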

Additional observations from a re-analysis of the deposited data

Results flagged for a closer look

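In 4 of 70 tests of a gene in a group, one library stood far from the others by Dixon's criterion, where chance flags about 1 in 20. In ovariectomized ASC2, library P had 0 CPM of Atf3 (next lowest 11.5 CPM) and 34.26 CPM of Klf6 (next 69.5 CPM). In control female ASC1, library A had 0 CPM of Ier2 (next 8.44 CPM). These libraries, P and A, had the lowest total counts of all, 106562 and 139822, and the part of depth was not tested. In control female ASC2, library E had 215.4 CPM of Klf6 (next highest 143 CPM), and it also had the highest Fos and Egr1 of that group.

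The effect of ovariectomy differed between ASC2 and ASC1 by the test of the difference itself for 9 genes. The log2 difference, ASC2 minus ASC1, was -6.63 for Egr1, -6.27 for Fosb, -6.09 for Fos, -4.11 for Jun, -4.09 for Klf4, -3.61 for Klf2, -3.11 for Atf3, -2.29 for Klf6 and -1.66 for Ier2. The ASC1 side rests on 3 libraries that also differ from the other 55 in mitochondrial share and in marker genes, whose part was not tested.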

How the results depend on the processing

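Counts of members called were recomputed 138 times, and 15 moved by more than 1.5 times. Without libraries against the sex label, the count was 2 for ASC2 against ASC1 in control males and 2 in control females, 1 for castrated against control ASC2, and 0 for ovariectomized against control ASC2 and for control males against females in ASC2. It gave no value where castrated ASC1 enters. Without libraries with Tcf21 (chosen after seeing the data), it was 4 in control females and 2 in castrated males for ASC2 against ASC1, and 0 for castrated against control ASC1 and ovariectomized against control ASC2. These subsets hold fewer libraries, and the share over all genes is not given for them. For castrated against control ASC1 (1 in the report), DESeq2 gave 2, no count filter 3 and only the groups compared 2. Control males against females in ASC2 (1) gave 0 with only the groups compared and 0 with a replicate block of letters A to H. With a replicate block of letter within condition, the mean of 4 conditions gave 4 in place of 7; letters share only a number, since 7 of 26 pairs had r over 0.1 and 7 libraries were most like their own letter. The cause of these changes was not tested. Leaving out each ovariectomized ASC1 library gave 7 to 9 calls for ovariectomy in ASC1, 7 to 9 for the difference of effects and 5 for ASC2 against ASC1. Of 665 recomputed values of called genes, 599 stayed called, 66 were no longer called and 0 changed direction. Of 710 values of genes not called, 29 were called and 32 changed sign, none of them called. Genes with few reads, such as Klf2 and Ier2, are limited by depth.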
